A study of Mus musculus with 8 samples.

Results

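Expression of the genes for antioxidant defence was examined in epithelium-enriched cells of the distal mouse lung after cigarette smoke (CS). The 65 genes, of 22756 in the files, were picked by symbol, and the list was made with earlier results of these data known. They were the transcription factor Nfe2l2 (NRF2) and its inhibitor Keap1, classic NRF2 targets, the enzymes that supply glutathione and NADPH, and all numbered members of the Gsta, Gstm, Gstp, Gstt, Gsto, Gstz, Mgst, Prdx, Gpx, Sod and Txn families. The study asked how chronic CS alters the lung epithelium and whether the nicotinic receptor α7 modulates this. α7G mice (Chrna7-IRES-tauGFP) carry a reporter in the receptor gene, and α7E260A:G mice (Chrna7-E260A-IRES-tauGFP) carry the same reporter together with a point mutation that strongly diminishes the calcium current of the receptor, in every cell that uses the gene. All mice were adult and over 90% C57BL/6. CS was side-stream smoke on 5 days per week for 4 months and controls breathed room air, so that the 4 groups were α7G control, α7G CS, α7E260A:G control and α7E260A:G CS, each with 1 male and 1 female library. The number of mice pooled in a library is not given in the sources used here, so that the spread between libraries is also the spread between the sexes.

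NRF2 is held in the cytoplasm by KEAP1, which directs it to a ubiquitin ligase. Electrophiles, of which smoke carries many, modify KEAP1, and NRF2 then enters the nucleus, pairs with small MAF proteins and binds the antioxidant response element (ARE) before genes for quinone reduction, glutathione synthesis and conjugation. Glutathione transferases (GST) couple glutathione to electrophiles, while peroxidases and superoxide dismutases remove peroxides and superoxide. Club cells and type 2 cells of the distal lung are known for high levels of such enzymes, and alveolar macrophages also use them.

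Each library held from 8020726 to 10944100 counts. Levels are given as RPM, the reads on the coding sequence (CDS) of a gene scaled to the total of the library, and 3 counts correspond to 0.274 to 0.374 RPM. Immunoglobulin, histocompatibility, Gm and ribosome subunit genes were left out by name. A mean count of at least 200 over the 8 libraries was then passed by 7196 genes and by 45 of the 65 members. The members closest to this limit were Nqo1 with a mean count of 183.9 below it and Osgin1 with 217.5 above it. Of the 20 members below the limit, Gpx5 and Gpx6 had no count in any library, and Gstt4 and Prdx6b had a mean count of 0.25 and 1.375.

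The cells were labelled as epithelium depleted of CD45+ cells. Scgb1a1 of club cells lay between 10452.4 and 58080.4 RPM, but markers of other cells were also present. The 13 alveolar macrophage markers, all of which passed the filter, summed to between 23130 and 35530 RPM in α7G and between 41010 and 74740 RPM in α7E260A:G. The 8 type 2 cell markers summed to between 19290 and 29200 RPM in α7G and between 4489 and 14150 RPM in α7E260A:G. The leukocyte gene Ptprc (CD45) lay between 771.4 and 1935.1 RPM, the 5 endothelial markers summed to between 213.8 and 567.8 RPM, and the 5 basal cell markers were all below the filter. The 5 red cell markers summed to 9374 RPM in the male α7E260A:G CS library and to between 198 and 2175 RPM in the others. In such mixed cells fewer cells of a type and less RNA per cell cannot be told apart.

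The libraries also differed along CDS length, which matters here because the 45 members that passed the filter are short (median 774 bases against 1548 for all 7196 genes). With each doubling of CDS length the log2 CS/control ratio shifted by -0.47 in α7G males, -0.26 in α7G females, -0.22 in α7E260A:G males and 0.041 in α7E260A:G females. Values after removal of this dependence are therefore given beside the main counts of members, but not for every gene or for the further lists.

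**Figure D1:**
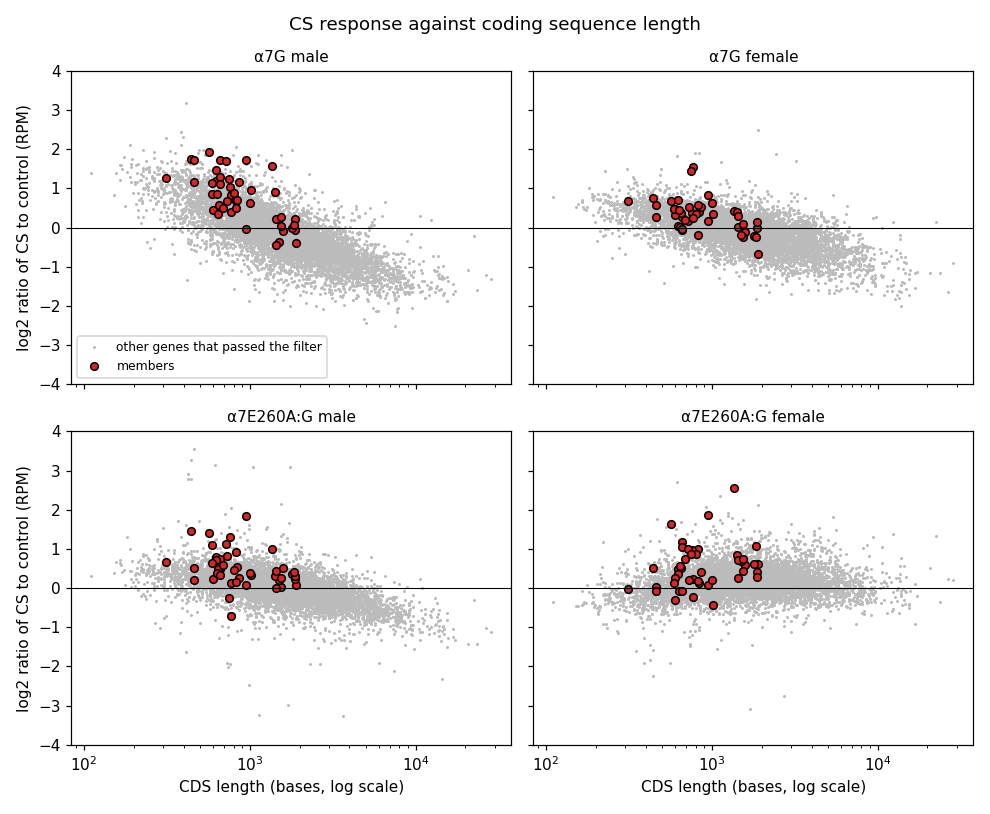
The log2 CS/control ratio of RPM (vertical axis) is plotted against CDS length in bases on a log scale (horizontal axis) for each genotype and sex, with other genes in grey and the 45 members in red. The grey cloud falls with length most steeply in α7G males (-0.47 per doubling) and is nearly level in α7E260A:G females (0.041 per doubling), and the members lie in its left and middle part.

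The promoters were searched for the core of the ARE, since it is the sequence through which NRF2 is known to act. Of the 65 members, 55 were found in the RefSeq promoter table (GRCm38.p6, 250 bases before to 50 after each start). The core TGACNNNGC was present, on either strand, in 14 of these 55 (25.45%), in 17.39% of the 5296 tested genes in the table and in 13.99% of all 27025 genes in it. The variant TGAGNNNGC, not counted as the core here, was present in 21.82% of the members and 23.51% of the tested genes. The AP-1 sequence TGACTCA, which lies within the core where the core reads TGACTCAGC, was present in 14.55% of the members and 4.588% of the tested genes. The core GCGTG of the xenobiotic response element of the aryl hydrocarbon receptor was present in 49.09% of the members and 57.27% of the tested genes. The rule that was to choose promoters for printing found no gene, so the following were chosen after their values were seen. Gclm, Ugdh, Gstm5 and Prdx1 hold the core in the 250 bases before the start and had higher levels in at least 3 of the 4 comparisons of CS with control in one sex and genotype, and Akr1b8 was above 1.5 times control in all 4 of them and had no core. The sequences run 5′ to 3′ on the strand of the gene, with every ARE core in capitals, and Gclm lies at chr3:122245307-122245556 (+), Ugdh at chr5:65435843-65436092 (-), Gstm5 at chr3:107895604-107895853 (+), Prdx1 at chr4:116685349-116685598 (+) and Akr1b8 at chr6:34353896-34354145 (+) of GRCm38.p6.
Gclm: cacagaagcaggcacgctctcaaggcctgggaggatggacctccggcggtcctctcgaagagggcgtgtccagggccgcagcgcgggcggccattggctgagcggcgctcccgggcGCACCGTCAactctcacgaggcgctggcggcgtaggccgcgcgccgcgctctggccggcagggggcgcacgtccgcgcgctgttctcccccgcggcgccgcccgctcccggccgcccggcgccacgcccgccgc
Ugdh: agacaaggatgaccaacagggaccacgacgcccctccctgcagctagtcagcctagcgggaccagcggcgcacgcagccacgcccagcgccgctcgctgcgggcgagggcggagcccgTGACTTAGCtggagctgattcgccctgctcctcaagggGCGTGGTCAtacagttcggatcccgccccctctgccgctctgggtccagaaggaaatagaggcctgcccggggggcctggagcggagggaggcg
Gstm5: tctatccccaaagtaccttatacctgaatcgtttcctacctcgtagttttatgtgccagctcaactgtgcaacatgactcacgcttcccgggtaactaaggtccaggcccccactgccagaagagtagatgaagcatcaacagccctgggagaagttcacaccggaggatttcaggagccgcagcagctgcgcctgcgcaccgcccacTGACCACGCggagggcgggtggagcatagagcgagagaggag
Prdx1: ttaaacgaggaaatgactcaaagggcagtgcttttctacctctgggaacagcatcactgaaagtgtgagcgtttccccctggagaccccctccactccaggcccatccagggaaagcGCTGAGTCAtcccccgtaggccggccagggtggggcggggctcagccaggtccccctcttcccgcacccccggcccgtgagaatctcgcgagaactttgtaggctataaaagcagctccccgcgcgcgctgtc
Akr1b8: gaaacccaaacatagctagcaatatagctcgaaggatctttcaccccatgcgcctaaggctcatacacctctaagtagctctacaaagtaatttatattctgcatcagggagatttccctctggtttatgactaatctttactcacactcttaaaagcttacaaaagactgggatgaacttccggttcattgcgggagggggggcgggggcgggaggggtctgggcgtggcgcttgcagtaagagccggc
Counted from the first base of the transcript, the core began at position -42 of Gstm5 and -132 of Ugdh. On the opposite strand it began at -134 of Gclm, -133 of Prdx1 and -94 of Ugdh. Bases beyond these windows were not searched, and Nqo1 and Gpx2 also had no core within them. Nfe2l2, G6pdx and Txnrd1 held a core and were not higher after CS in both sexes of α7G. A match is a description of the letters and was not tested for binding.

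The comparison of CS with control asked how far these genes respond in each genotype. No member passed edgeR's quasi-likelihood test at an adjusted p of 0.05 in α7G, in α7E260A:G, over both genotypes or in the difference between the genotypes' responses, where the share of all 7196 genes called was also 0%. With an unadjusted p under 0.05 there were 8 members in α7G, 7 in α7E260A:G, 12 over both genotypes and 2 in the difference, against 487 (6.77%), 121 (1.68%), 546 (7.59%) and 104 (1.45%) of all genes. DESeq2 called 1, 1, 3 and 0 members in the same order, against 27 (0.375%), 11 (0.153%), 39 (0.542%) and 3 (0.0417%) of all genes, and the fit of the 4 α7G libraries alone called 19 members and 1159 genes.

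By direction, 33 of the 45 members that passed the filter were higher after CS in both sexes of α7G (27.4% of all genes) and 36 in both sexes of α7E260A:G (36% of all genes), and 25 were higher in all 4 pairs of libraries (13.1% of all genes). Lower levels in both sexes were found for 5 members in α7G (47.7% of all genes) and for none in α7E260A:G (17.6% of all genes). With CDS length removed, 28 members were higher in both sexes of α7G (30.6% of all genes), 36 in α7E260A:G (37.6% of all genes) and 22 in all 4 pairs (14% of all genes). The median log2 fold change of the members was 0.71 in α7G, where it was 0.30 with CDS length as an offset, and 0.32 in α7E260A:G, where it was 0.30 with the offset, against -0.02 and -0.04 for all genes. The α7E260A:G median was 0.074 without the male and 0.80 without the female control library, and 0.51 without the male and 0.060 without the female CS library, so that single libraries decide its size. The alveolar macrophage marker sum was also higher after CS in all 4 pairs, at 29360 against 23130 RPM in α7G males, 35530 against 30480 RPM in α7G females, 53360 against 41010 RPM in α7E260A:G males and 74740 against 70800 RPM in α7E260A:G females. The sums of the epithelium markers (1002 to 1557 RPM in controls and 1281 to 1886 RPM after CS), of the type 1 cell markers (140.1 to 435.5 and 153.6 to 475.3 RPM) and of the fibroblast markers (732.6 to 2424 and 1704 to 2902 RPM) were higher after CS in all 4 pairs as well. The sum of the 5 leukocyte markers was lower after CS in all 4 pairs (1714 to 2960 RPM in controls and 1447 to 2179 RPM after CS). Ptprc among them was also lower in all 4, at 956.3 to 1935.1 RPM in controls and 771.4 to 1414.2 RPM after CS. The markers within a list did not all move together. By edgeR, 9 of the 13 macrophage markers had a positive log2 fold change with CS in α7G and 10 in α7E260A:G. For the 5 epithelium markers these were 4 and 3, for the 6 fibroblast markers 5 and 5, and for the 5 leukocyte markers 4 and 1. For the 4 type 1 cell markers that passed the filter they were 3 and 4. Mrc1 fell in α7G, from 860.2 to 405.6 RPM in males and from 790.3 to 498.3 RPM in females. Cdh1 fell there from 278.6 to 149.8 and from 292.7 to 145.0 RPM. The type 1 cell marker Ager fell in males, from 261.0 to 211.1 RPM in α7G and from 74.2 to 65.6 RPM in α7E260A:G. In females of both genotypes Ager rose. The part of the cells behind these markers in the members' levels was not tested.

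**Figure D2:**
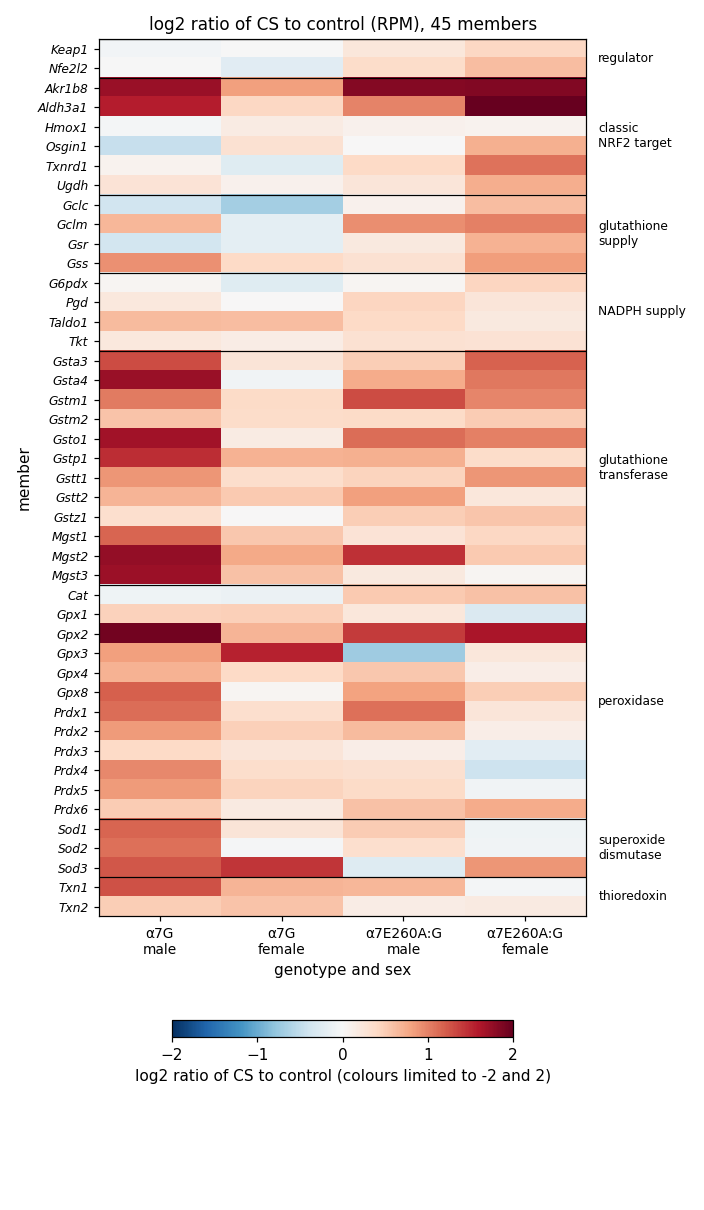
Each row is 1 of the 45 members that passed the filter, grouped by role, and each column 1 pair of libraries (genotype and sex), coloured by the log2 CS/control ratio of RPM, with colours limited to -2 and 2. Red fills 25 rows from end to end, with the deepest colour in Akr1b8, Aldh3a1 and Gpx2, and the blue cells of α7G include both regulators, Gclc, Gsr and Cat.

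Both regulators had levels close to control in α7G and higher ones after CS in α7E260A:G. Nfe2l2 lay at 372.1 (male) and 443.5 (female) RPM in α7G controls and 370.8 and 379.3 RPM after CS, and at 343.6 and 287.7 RPM in α7E260A:G controls and 442.0 and 442.8 RPM after CS. Keap1 lay at 58.3 and 49.7 RPM in α7G controls, 56.0 and 49.6 RPM after CS, 49.3 and 32.6 RPM in α7E260A:G controls and 57.9 and 43.7 RPM after CS. CS and control libraries of Keap1 thus overlapped.

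Among the classic targets, the aldo-keto reductase Akr1b8, which reduces reactive aldehydes, had CS/control ratios of 3.33 and 1.77 in α7G and 3.55 and 3.61 in α7E260A:G. Akr1b8 (ENSMUSG00000029762.6, chromosome 6 from 34304119 to 34318463 of mm9) lay at 25.9 and 31.8 RPM in α7G controls and 86.0 and 56.3 RPM after CS, and at 21.4 and 23.2 RPM in α7E260A:G controls and 76.2 and 83.9 RPM after CS. All 4 CS libraries were above all 4 controls (75.6 ± 13.5 against 25.6 ± 4.53 RPM, SD, n = 4), a pattern of 1.65% of all genes that was shared by 4 of the 45 members that passed the filter, Akr1b8, Gpx2, Gstm1 and Ugdh. With CDS length removed it was shared by 6, with Gstp1 and Mgst2 added (2.06% of all genes). No member had all CS libraries below all controls (0.417% of all genes). The two-sided exact permutation p of Akr1b8 was 0.0286, the smallest that 70 arrangements allow, and 1 after adjustment over the 7196 genes. By edgeR its log2 fold change was 1.42 ± 0.32 (SE) in α7G (adjusted p = 0.5882), 1.75 ± 0.32 in α7E260A:G (adjusted p = 1) and 1.58 ± 0.22 over both (adjusted p = 0.6302). DESeq2 gave adjusted p-values of 0.0228, 0.00758 and 1.04e-06 for the same 3 comparisons.

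Nqo1, the quinone reductase used most often as a read-out of NRF2, was below the filter but had the highest ratio of CS to control (5.93 over 4 against 4 libraries) of the members counted in every library. It lay at 7.10 and 8.01 RPM in α7G controls and 63.5 and 14.1 RPM after CS, and at 5.60 and 3.84 RPM in α7E260A:G controls and 36.0 and 32.0 RPM after CS. Its counts were 42 to 75 in the controls and 125 to 546 in the CS libraries, which did not overlap (exact permutation p = 0.0286, not adjusted). Its CS/control ratio was 8.95 in α7G males, 1.76 in α7G females, 6.43 in α7E260A:G males and 8.33 in α7E260A:G females. When genes were kept by edgeR's filterByExpr, its log2 fold change over both genotypes was 2.64 ± 0.44 (edgeR, adjusted p = 0.555).

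Aldh3a1, an aldehyde dehydrogenase of airway epithelium, lay at 110.7 and 93.4 RPM in α7G controls, 329.2 and 124.1 RPM after CS, 28.9 and 19.0 RPM in α7E260A:G controls and 57.5 and 111.5 RPM after CS. The CS level exceeded that of the control in all 4 pairs, but the groups overlapped because the genotypes started apart. Its log2 fold change over both genotypes was 1.54 ± 0.37 (edgeR, adjusted p = 0.6302). Ugdh, which makes UDP-glucuronic acid, had narrow ranges, 49.1 to 68.3 RPM in the controls and 72.2 to 81.4 RPM after CS. Hmox1, the haem oxygenase, lay at 120.9 and 102.6 RPM in α7G controls and 118.0 and 115.4 RPM after CS, with 169.8 and 169.5 RPM in α7E260A:G controls and 179.5 and 177.8 RPM after CS, so that it was set apart by genotype and not by CS. Txnrd1, the cytosolic thioredoxin reductase, had ratios of CS to control of 1.05 and 0.846 in α7G and 1.32 and 2.11 in α7E260A:G. Srxn1, the sulfiredoxin that repairs peroxiredoxins, had only 24 to 82 counts per library, and its ratio was above 1 in 3 of the 4 pairs.

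**Figure D3:**
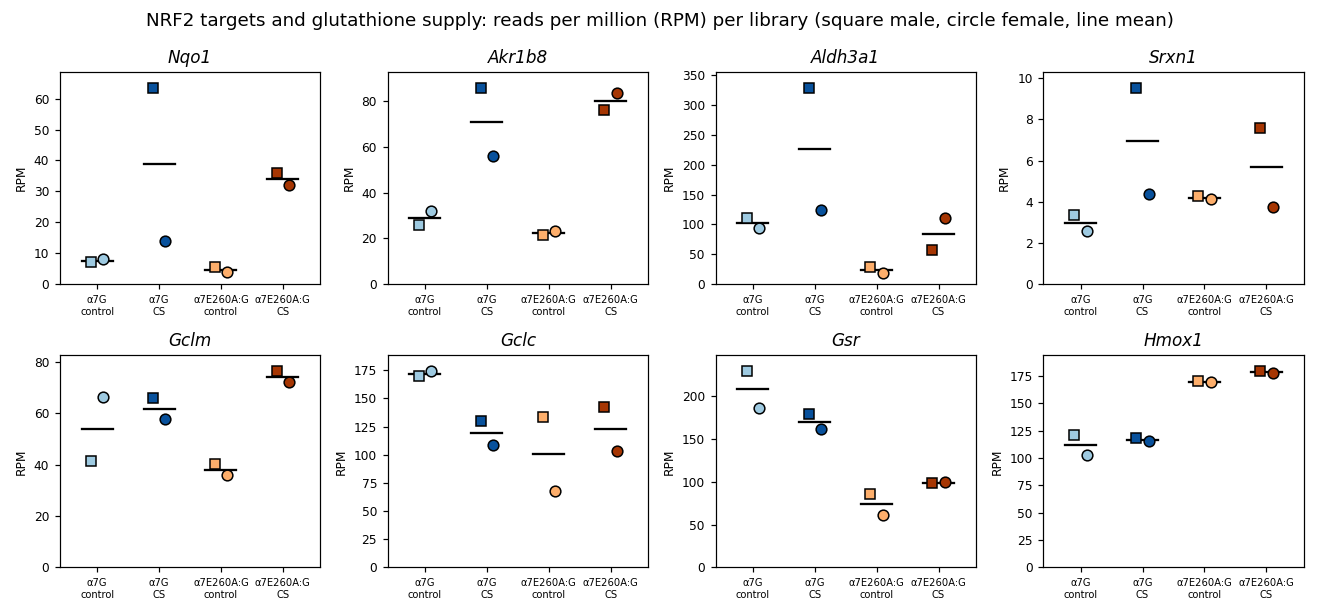
RPM (vertical axis, from 0) of 8 classic targets and glutathione supply genes in each group (horizontal axis), with a square for the male library, a circle for the female library and a line at their mean. CS points of Nqo1 and Akr1b8 lie above all control points, Gsr and Hmox1 separate by genotype, and the single high point of Nqo1 and Aldh3a1 in α7G CS is the male library.

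In glutathione supply, the subunits of the rate-limiting ligase differed. Gclm, the modifier subunit, lay at 41.5 and 66.1 RPM in α7G controls, 66.0 and 57.5 RPM after CS, 40.2 and 35.8 RPM in α7E260A:G controls and 76.4 and 71.9 RPM after CS. It was thus higher in both sexes of α7E260A:G (log2 fold change 0.88 ± 0.28, edgeR, adjusted p = 1) and in males only of α7G. Gclc, the catalytic subunit, lay at 169.6 and 174.5 RPM in α7G controls and 129.6 and 109.1 RPM after CS, and at 133.7 and 67.8 RPM in α7E260A:G controls and 142.0 and 103.8 RPM after CS. Gsr, the reductase that regenerates glutathione, lay at 229.7 and 186.2 RPM in α7G controls, 179.0 and 161.9 RPM after CS, 86.3 and 61.6 RPM in α7E260A:G controls and 98.7 and 99.8 RPM after CS. Gss, the synthetase, was higher after CS in all 4 pairs, by 1.23 to 1.88 times. Slc7a11, the cystine carrier, was at 1.02 to 7.23 RPM in every library.

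All 12 glutathione transferases that passed the filter had a positive log2 fold change in α7G, with a median of 0.95 (0.51 with the CDS length offset), and 11 of 12 in α7E260A:G, with a median of 0.52 (0.46 with the offset). Of the 12, 11 were higher in all 4 pairs of libraries, and 8 with CDS length removed. The exception in RPM was Gsta4, which conjugates the lipid aldehyde 4-hydroxynonenal, with ratios of 3.33 and 0.955 in α7G and 1.67 and 2.08 in α7E260A:G.

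Gstm1, among the most abundant members, lay at 375.4 and 500.2 RPM in α7G controls and 770.9 and 651.2 RPM after CS, and at 364.8 and 512.3 RPM in α7E260A:G controls and 904.0 and 1007.3 RPM after CS. The CS libraries lay above the controls (ratio 1.90), with a log2 fold change over both genotypes of 0.91 ± 0.25 (edgeR, adjusted p = 0.6302). Gsto1, the omega class transferase, lay at 370.0 and 492.1 RPM in α7G controls, 1190.9 and 551.9 RPM after CS, 137.2 and 236.9 RPM in α7E260A:G controls and 297.9 and 476.6 RPM after CS. Its levels after CS in α7E260A:G therefore overlapped those of α7G controls. Gstp1 had ratios of 2.77 and 1.62 in α7G and 1.64 and 1.29 in α7E260A:G, and the microsomal Mgst2 of 3.38 and 1.70 in α7G and 2.77 and 1.43 in α7E260A:G.

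Of the 12 transferases below the filter, Gstm5, Gsto2 and Gstp2 had all CS libraries above all controls, as did Nqo1, a pattern of 1.7% of the 10164 genes counted at a mean under 200. Gstm5 lay at 5.65 and 11.5 RPM in α7G controls, 16.2 and 14.7 RPM after CS, 5.12 and 8.13 RPM in α7E260A:G controls and 14.5 and 20.4 RPM after CS (exact permutation p = 0.0286, not adjusted). Gsta1 was counted only after CS, with 119 and 6 counts in α7G and 2 and 33 in α7E260A:G and 0 in all 4 controls, so that it entered the genes with a count through the CS libraries alone, and its 2 counts in the male α7E260A:G CS library are below the floor of 3 counts. Several of these genes share sequence, so that the split of their reads is uncertain. Of the 50-base stretches of the CDS, 92.9% of Gsta1 also occur in other genes, 76.9% of Gsta2, 71.1% of Gstp1 and of Gstp2, which are shared between them, 29.4% of Gstm1 and 3.44% of Akr1b8.

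**Figure D4:**
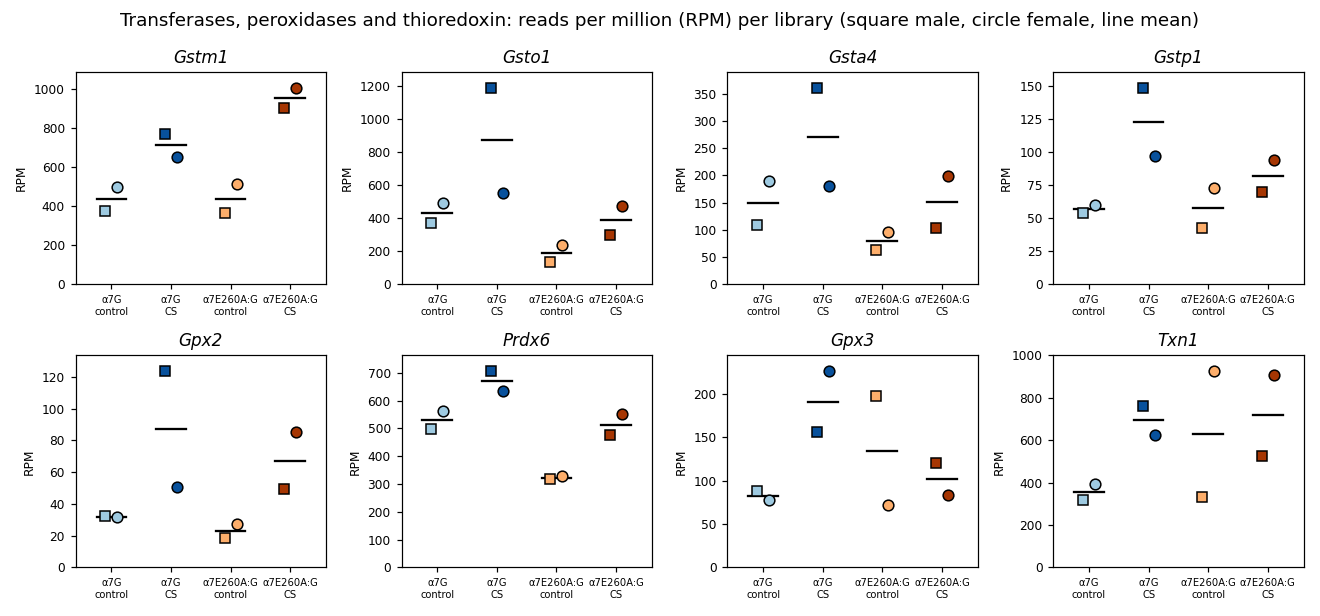
RPM (vertical axis, from 0) of 8 transferases, peroxidases and thioredoxin in each group (horizontal axis), with a square for the male library, a circle for the female library and a line at their mean. CS points of Gstm1 and Gpx2 lie above all control points, while Gpx3 is higher after CS in α7G (77.5 and 87.8 against 155.6 and 226.3 RPM) and has its second highest point in the male α7E260A:G control (197.0 RPM).

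Among the peroxidases, Gpx2, the glutathione peroxidase of epithelium and a known NRF2 target, differed most. It lay at 32.4 and 31.5 RPM in α7G controls and 123.8 and 50.4 RPM after CS, and at 18.6 and 27.6 RPM in α7E260A:G controls and 49.1 and 85.5 RPM after CS, without overlap of CS and control. Its log2 fold change was 1.57 ± 0.54 in α7G (edgeR, adjusted p = 0.5882), 1.44 ± 0.54 in α7E260A:G (edgeR, adjusted p = 1) and 1.503 ± 0.382 over both (edgeR, adjusted p = 0.6302). The first was 0.79 without the male and 2.07 without the female α7G CS library, and the second 0.84 without the female α7E260A:G CS library and 1.99 without the female control. Of the 45 members that passed the filter, Gpx2 and Akr1b8 were above 1.5 times control in all 4 pairs (0.153% of all genes). Of the members below the filter, where the share of all genes was not counted, Nqo1 and Gstp2 did the same. With CDS length removed this held for Akr1b8 alone of the 45, since the ratio of Gpx2 in α7G females was then 1.32.

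Per length, Txn1, Prdx1 and Gpx1 had the highest levels of all members, with mean levels over the 8 libraries of 1901, 1593 and 1542 RPM per kilobase of CDS. Prdx6, the peroxiredoxin with phospholipase activity that is abundant in lung lining cells, lay at 497.5 and 561.3 RPM in α7G controls, 706.9 and 635.9 RPM after CS, 317.0 and 327.8 RPM in α7E260A:G controls and 476.5 and 550.9 RPM after CS. Prdx1 had larger ratios in the male than in the female pairs, with 2.18 and 1.26 in α7G and 2.14 and 1.19 in α7E260A:G. Each ratio rests on 1 pair of libraries, and the shift with CDS length also differed between male and female pairs. The part of that shift was not tested. Catalase (Cat) had ratios of 0.946 and 0.921 in α7G and 1.437 and 1.499 in α7E260A:G. Gpx1 had ratios of 1.37 and 1.40 in α7G and 1.17 and 0.817 in α7E260A:G.

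The secreted enzymes stood apart. Sod3, the extracellular superoxide dismutase, lay at 48.8 and 51.8 RPM in α7G controls and 115.3 and 140.2 RPM after CS, and at 123.5 and 44.0 RPM in α7E260A:G controls and 103.7 and 81.2 RPM after CS. Gpx3, the plasma glutathione peroxidase, had a like pattern, with ratios of 1.77 and 2.92 in α7G and 0.609 and 1.16 in α7E260A:G. For both, the male α7E260A:G control was as high as CS libraries. The difference of the responses was -1.34 ± 0.50 on the log2 scale for Sod3 and -1.76 ± 0.53 for Gpx3 (edgeR, adjusted p = 0.9973 for both). Without the male α7E260A:G control it was -0.66 for Sod3 and -1.105 for Gpx3. The 6 fibroblast markers summed to 2424 RPM in the male and 732.6 RPM in the female α7E260A:G control, and their part in this was not tested.

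The intracellular dismutases Sod1 and Sod2 had ratios of 2.24 and 2.14 in α7G males and 1.20 and 0.982 in α7G females, with 1.42 and 1.26 in α7E260A:G males and 0.946 and 0.956 in α7E260A:G females. These ratios too rest on 1 pair of libraries each, between which the shift with CDS length differed. Txn1, the cytosolic thioredoxin, lay at 316.4 and 391.1 RPM in α7G controls, 763.0 and 626.4 RPM after CS, 333.1 and 926.5 RPM in α7E260A:G controls and 527.5 and 905.3 RPM after CS. Its CDS is the shortest of the 45 members (315 bases), and with length removed its ratio was 1.21 and 1.15 in α7G. In NADPH supply, Taldo1 of the pentose phosphate pathway had ratios of 1.55 and 1.53 in α7G and 1.31 and 1.15 in α7E260A:G, while G6pdx, which opens that pathway, had ratios of 1.02 and 0.849 in α7G and 1.03 and 1.34 in α7E260A:G. Me1, the cytosolic malic enzyme, had ratios of 0.927 and 0.549 in α7G and 1.60 and 1.61 in α7E260A:G and was below the filter.

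A ratio of at least 1.5 in both sexes was found in α7G for 8 of the 45 members that passed the filter (3.04% of all genes), namely Akr1b8, Gpx2, Gpx3, Gstp1, Mgst2, Sod3, Taldo1 and Txn1. With CDS length removed it was found for 2, Akr1b8 and Sod3 (1.07% of all genes). In α7E260A:G it was found for 8 of the 45 (1.32% of all genes), namely Akr1b8, Aldh3a1, Gclm, Gpx2, Gsta4, Gstm1, Gsto1 and Prdx6, and for 7 with length removed (1.21% of all genes). Below the filter it was found in α7G for Gsta1, Gsto2, Gstp2, Nqo1 and Srxn1, and in α7E260A:G for Gsta1, Gstm5, Gstm6, Gstm7, Gstp2, Me1 and Nqo1, where the counts are few. Gsta1 had no count in any control, so that its ratio has no finite value. The share of all genes below the filter with such ratios was not counted, so these names are no result about the members. A ratio of 1/1.5 or less in both sexes was found for no member in α7G (10.6% of all genes) or α7E260A:G (0.584% of all genes).

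The genotypes were then compared over both exposures. The edgeR test called 6 of 7196 genes (0.0834%) and none of the members. An unadjusted p under 0.05 was found for 7 of the 45 members (15.6%) and 854 of all genes (11.9%), and DESeq2 called 3 members (6.67%) and 427 of all genes (5.93%), so that the members' shares were near the background. Gsr was lower in all 4 α7E260A:G than in all 4 α7G libraries (86.6 ± 17.8 against 189.2 ± 28.9 RPM, SD, n = 4), as was Gstz1, and these 2 of the 45 members stand beside 5.14% of all genes. With TMM scaling this held for Gsr and not for Gstz1 (3.79% of all genes). Below the filter, where the share of all genes was not counted, Gstm6 and Me1 had the same pattern in RPM. The log2 fold change of Gsr was -1.08 ± 0.14 (edgeR, adjusted p = 0.0713), and its adjusted p by DESeq2 was 1.56e-09. With sex as a replicate block Gsr passed the edgeR test (adjusted p = 0.0405), as the 1 member among 40 genes called. Hmox1 was the member higher in all 4 α7E260A:G libraries (2.99% of all genes), at 174.2 ± 5.24 against 114.2 ± 8.07 RPM (SD, n = 4), with a log2 fold change of 0.68 ± 0.15 (edgeR, adjusted p = 0.1245). The exact permutation p of each was 0.0286, and 0.351 after adjustment over the 7196 genes.

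Aldh3a1 and Gsto1 had log2 fold changes of -1.69 ± 0.37 and -1.08 ± 0.38 between the genotypes (edgeR, adjusted p = 0.1218 and 0.2995). Gstm6, below the filter, had 42 to 62 counts in the α7G libraries and 2 to 18 in the α7E260A:G libraries. The median log2 fold change was -0.48 for the 12 transferases and -0.04 for the 45 members, against 0.04 for all genes. As given above, macrophage marker sums were higher and type 2 cell marker sums lower in α7E260A:G, while the 6 club cell markers summed to between 21540 and 53010 RPM there and between 50460 and 80520 RPM in α7G, with a narrow overlap. The part of these cells in the differences was not tested.

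Further genes of the pathway were described by lists. Of 20 further NRF2 targets that passed the filter, 18 had a positive log2 fold change with CS in α7G (48.3% of all genes) and 16 in α7E260A:G (44.4% of all genes), and none was called by edgeR, with 4 at an unadjusted p under 0.05 in each genotype and 7 over both. DESeq2 called 1 of them (Cbr3) in α7G, 0 in α7E260A:G and 2 (Adh7 and Cbr3) over both, and the shares of all genes under both rules are those given for the members. The carbonyl reductase Cbr3 lay at 24.9 and 29.7 RPM in α7G controls, 103.7 and 48.4 RPM after CS, 25.5 and 25.1 RPM in α7E260A:G controls and 56.1 and 58.9 RPM after CS, again without overlap. Cbr1, a related reductase, had ratios of 2.65 and 1.22 in α7G and 2.05 and 1.54 in α7E260A:G, and the glucuronosyltransferase Ugt1a6a had 1.68 and 0.885 in α7G and 1.90 and 2.41 in α7E260A:G. Adh7, an alcohol dehydrogenase, had 3.603 and 1.10 in α7G and 1.72 and 5.10 in α7E260A:G. Among 5 tested regulators, Bach1, the repressor that competes with NRF2, had ratios of 0.407 and 0.641 in α7G and 0.765 and 1.15 in α7E260A:G, with a log2 fold change of -0.88 ± 0.52 in α7G (edgeR, adjusted p = 0.5882). Of 8 tested genes each in the further glutathione and thioredoxin lists, 6 and 7 had a positive log2 fold change in α7G and 3 and 3 in α7E260A:G, and of 7 in the NADPH list 6 and 4. With CS, 0 genes of these 3 lists and of the regulators were called by edgeR or DESeq2, and 0 had an unadjusted edgeR p under 0.05. Pgls of the pentose phosphate pathway had ratios of 2.52 and 1.53 in α7G and 1.44 and 0.916 in α7E260A:G, and Rbx1, a subunit of the ligase that KEAP1 serves, had 1.84 and 1.86 in α7G and 1.00 and 0.718 in α7E260A:G. None of the values of these further lists had CDS length removed, and the shift with length was steeper in α7G than in α7E260A:G. Its part in the contrasts between the genotypes was not tested.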

How the data were processed

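RNA-Seq was analysed from 8 libraries of CD45-depleted distal lung cells, 1 male (replicate 1) and 1 female (replicate 2) in each of 4 groups. The authors aligned reads with STAR to mm9 (NCBIM37) and counted them on CDS with htseq-count and GENCODE release M1, and deposited the raw counts per gene, which carry no normalization. Tool versions and the strand setting are not given in the sources used here. Poly-adenylated stranded libraries were used. CDS counts ignore reads on untranslated ends. CDS lengths and mm9 coordinates were taken from GENCODE M1.

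Genes were kept at a mean count of 200 or more, without immunoglobulin, histocompatibility, Gm and ribosome subunit genes (7196 genes). Counts were tested with the quasi-likelihood functions of edgeR 4.0.16 (limma 3.58.1, R 4.3.3) after TMM scaling. The model had a term for each of the 4 groups and none for sex, and p-values were adjusted by Benjamini-Hochberg over all kept genes and read at 0.05. SE were derived from the F statistic. RPM are reads per 1000000 counts of a library. Dependence on CDS length was removed by lowess (span 0.667). With 2 libraries per group no exact test within a genotype can reach 0.05, and 4 against 4 libraries have 70 arrangements. Counting floors of 3 counts cover counting error only. The fit was tested on simulated counts. Alternatives were DESeq2 1.42.0, other scalings and filters, sex as a block, the length offset, fits of 1 genotype, and leaving out each library.

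The members and lists were chosen with earlier results of these data known. Genes were named if called, if the ratio of CS to control was at least 1.5 or at most 1/1.5 in both sexes of a genotype at a mean count of at least 200, or if 4 against 4 libraries did not overlap with such a ratio of means, together with 16 fixed members (the regulators, Gclc, Gclm, Nqo1, Hmox1, Txnrd1, Srxn1, Prdx6, Cat, Sod1, Sod2, Sod3, Gpx1, Gpx3 and Txn1). Other members are named only to account for the families, their ranges or the limit of the filter. Promoter sequences are from RefSeq (GRCm38.p6), and no coordinates were converted between builds.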

Additional observations from a re-analysis of the deposited data

Results flagged for a closer look

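In RPM, the members Cat, Gclc, Gsr, Keap1 and Nfe2l2 were lower after CS in both sexes of α7G and higher in both sexes of α7E260A:G. This was a pattern of 11.6% of all 7196 genes and 11.1% of the members. The difference between the responses was 0.447 (SE 0.272) on the log2 scale for Cat, 0.6465 (SE 0.359) for Gclc, 0.5267 (SE 0.287) for Gsr, 0.1485 (SE 0.297) for Keap1 and 0.4137 (SE 0.305) for Nfe2l2, and none passed the edgeR test of the interaction (adjusted p = 0.9973 for each). Their CDS are from 1500 to 1911 bases long, against a median of 774 for the 45 members, and with CDS length removed Gclc and Gsr kept the pattern. With TMM scaling, which the edgeR test uses, only Gclc and Gsr of the 45 members were lower in both sexes of α7G. The edgeR log2 fold change in α7G was above 0 for Cat and Keap1.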

How the results depend on the processing

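The direction of the CS and genotype differences held for all 40 pairs of a named member and a comparison with a difference of at least 1.5 times, under all 625 alternatives run for them, and 32 of these alternatives brought a member past the threshold. Many of these members were named for their differences in the same libraries, and only differences of at least 1.5 times were followed. A reversal was thus unlikely from the start, and its absence is no evidence of robustness. DESeq2 called 27 genes and 1 member (Akr1b8) for CS in α7G, 11 genes and 1 member (Akr1b8) in α7E260A:G, 39 genes and 3 members (Akr1b8, Aldh3a1 and Gpx2) over both, 3 genes and 0 members in the difference of the responses, and 427 genes and 3 members (Aldh3a1, Gsr and Hmox1) between the genotypes. The fit of the 4 α7G libraries alone called 1159 genes and 19 members. Under filterByExpr, 1 gene was called for CS in α7E260A:G and 13 genes between the genotypes, and without a filter 3 genes, 1 gene (over both genotypes) and 69 genes with 1 member (Gsr). The CDS length offset called 477 genes and 4 members between the genotypes (Aldh3a1, Gsr, Gsto1 and Hmox1). The members' median was 0.2957 with that offset for CS in α7G, and for CS in α7E260A:G 0.3683 with library size scaling, 0.3954 with filterByExpr and 0.409 without a filter.

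With sex as a replicate block, 40 genes and 1 member (Gsr) were called between the genotypes, and no call for CS changed. With the block and the length offset together these were 675 genes and 7 members between the genotypes, 2 genes and 1 member (Akr1b8, log2 fold change 1.42, adjusted p = 0.0494) for CS over both genotypes, and the median for CS in α7G was 0.3005. Deviations of libraries of the same sex correlated between -0.096 and 0.84 over the 6 pairs of groups, and 2 numbers per group do not establish a pairing.

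Leaving out each library gave medians of 0.06025 (without the female α7E260A:G CS library) to 0.797 (without the female α7E260A:G control) for CS in α7E260A:G, -0.7182 to 0.254 for the difference of the responses and 0.2684 to 0.7488 for CS over both genotypes. It gave 0 to 1 gene called over both genotypes, 1 to 275 genes and 0 to 1 member between the genotypes (123 genes without the male and 275 without the female α7E260A:G control), and 4 to 15 members without overlap of CS and control and 3 to 10 of the genotypes, where fewer libraries overlap less by construction. With CDS length removed, which was chosen for these counts after seeing the data, 7 of the 45 members did not overlap between the genotypes. Of these, 3 were higher in all α7E260A:G libraries (6.88% of all genes) and 4 lower (5.75% of all genes). In both sexes, 2 members were then higher by 1.5 times in α7G (1.07% of all genes). Lower were 3 in α7G (33.4% of all genes) and 2 in α7E260A:G (19.4% of all genes), and with TMM scaling 2 in α7G (39.1% of all genes). Counting both forms of the ARE core, TGACNNNGC and TGAGNNNGC, gave 41.82% of the members and 36.39% of the tested genes. Depth limits members with few counts, such as Gsta1, Gstm6 and Srxn1, for which no fold change is given.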
